A study of Rattus norvegicus with 6 samples.

Results

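The D-type cyclins and the regulators that act with them in G1, the phase in which a cell commits to copying its DNA, were examined in rat prostate after long feeding of corn oil. The members were 10 genes of the 4736 that had a probe set of their own on the array: the cyclin genes Ccnd1, Ccnd2, Ccnd3 and Ccne1, the kinase genes Cdk4 and Cdk2, the inhibitor genes Cdkn1a and Cdkn1b, the replication clamp gene Pcna and the retinoblastoma gene Rb1. They were taken by annotation, and 23 of the 8799 probe sets belonged to them. The set was selected on the opposite diet differences of Ccnd1 and Ccnd2 over these 6 arrays, so the diet values of the members are given as a description and no test is drawn from them.

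Total RNA was taken from dorsolateral prostate of male rats of the inbred ACI strain. The groups were 3 rats on a high and 3 on a low corn oil diet, the latter being the control diet of the design. Each diet was given for 18 months, the labels state the age as 18 months, and no allele or other agent is named. Each rat had its own array, and part of each gland went to histology. The measurements are of whole tissue, in which fewer cells of a type and less RNA per cell cannot be told apart.

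Cyclins of the D type are made in response to growth signals and hormones, bind Cdk4 or Cdk6, and start the phosphorylation of the retinoblastoma protein. That releases E2F factors, which switch on cyclin E and the genes of DNA replication, while cyclin E with Cdk2 completes the step. The inhibitors p21 (Cdkn1a) and p27 (Cdkn1b) restrain these kinases, and low p27 protein is a common feature of human prostate cancer.

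The high corn oil arrays were not alike. Replicates 2 and 3 stood apart from the other 4 arrays, with Spearman correlations of 0.858 to 0.897 with the low arrays, and 0.932 with each other. High corn oil replicate 1 lay with the low arrays: its Spearman correlation over probe sets was 0.870 and 0.882 with the other high corn oil arrays and 0.928 to 0.950 with the low ones, which had 0.927 to 0.954 among themselves. The signal of the bacterial spike-in controls was higher on high corn oil replicate 1 and on 2 arrays of the low diet (replicates 1 and 2) than on the remaining 3. This signal was the mean log2 value over all bacterial control probe sets, those named _at and those named _st together, with low values raised to a floor. It was 9.55 to 9.88 on the former arrays and 8.75 to 9.12 on the latter, split at the median. The _at and _st probe sets were not examined apart, so the spike-in level used below is a mixed value. The free-text description of high corn oil replicate 3 names the low diet, against its title and source name. The prostate secretory genes Pbsn and Msmb were measured with 3 others of a secretory list. The summed intensity of that list was 206552, 126786 and 129463 on high corn oil replicates 1, 2 and 3. On the low ones it was 222592, 201993 and 179976. On the log2 scale 3 of its genes had a higher and 2 a lower mean under the high diet. Values are deposited intensities on a linear scale, and the algorithm that made them is unknown. Differences are high minus low on the scale log2(intensity + 156.14), with the standard error (SE) from limma, and n is 3 per diet throughout.

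A probe set entered the limma fit if its mean intensity was at least 342.9. That held for 14 member probe sets of 6 genes: Ccnd1, Ccnd2, Ccnd3, Cdk4, Ccne1 and Pcna. The other 9, among them every probe set of Cdk2, Cdkn1a, Cdkn1b and Rb1, were too dim. The member nearest above that level was a Ccne1 probe set with a mean of 713.4, and the nearest below it a Ccnd1 probe set with a mean of 256.4.

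Of the 14 probe sets, 11 had a higher and 3 a lower mean under the high diet, and 53.9% of all 5244 tested probe sets had a higher one. The median difference was 0.34 over the 14 and 0.03 over all tested probe sets. In 5 of the 14 all high arrays lay above all low arrays, as did 8.83% of the whole table, and in 1 all high arrays lay below, as did 6.71%. The contrast was the one used to propose the genes, so nothing is read from these shares. Over the whole table limma called 0 probe sets (0% of 5244) at an adjusted p under 0.05, and 522 (9.95%) had an unadjusted p under 0.05.

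**Figure D1:**
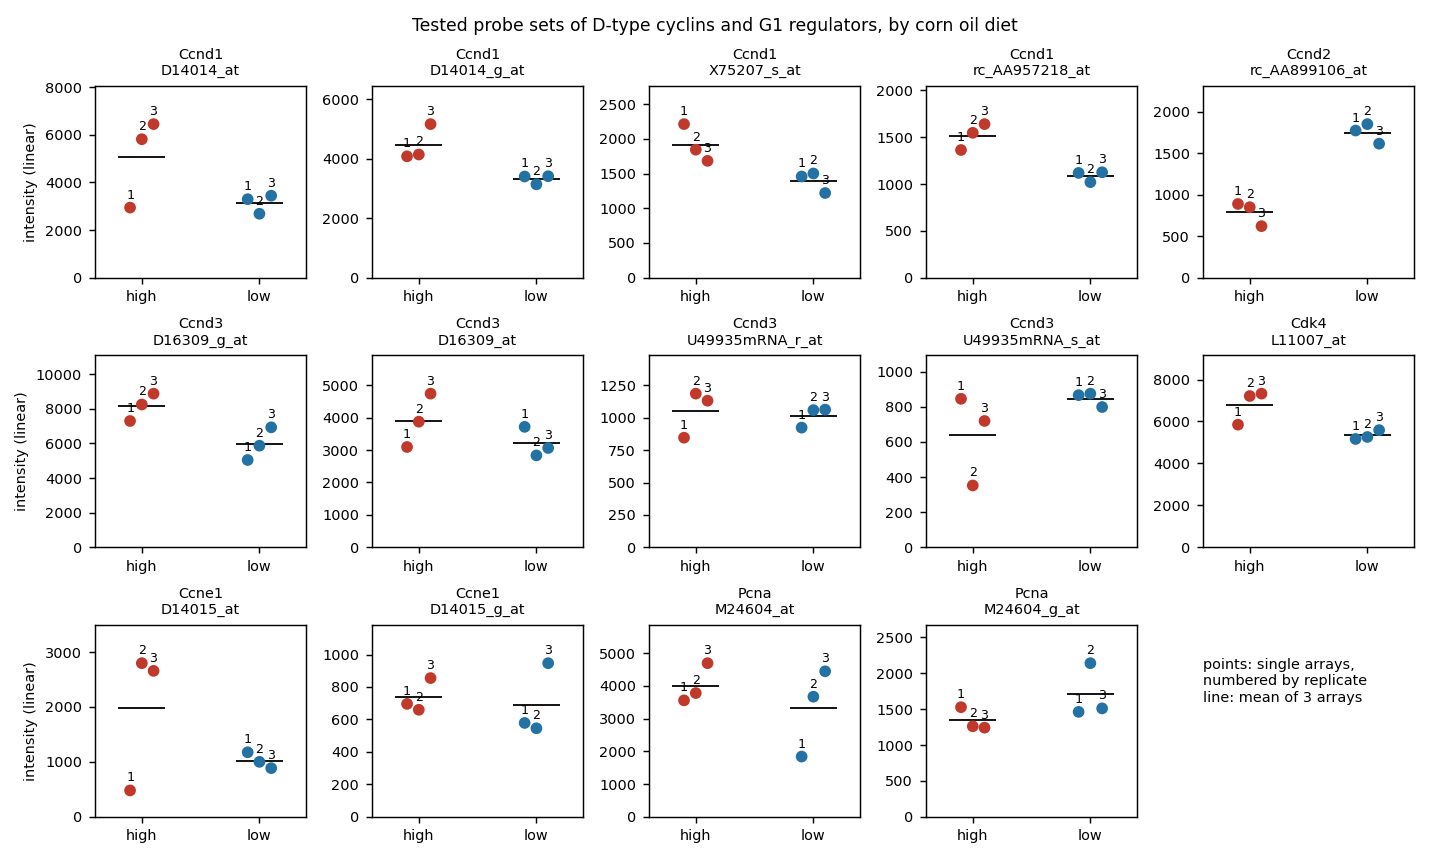
Intensity (linear, each axis from 0) of the 14 tested member probe sets on the 3 high (red) and 3 low (blue) corn oil arrays; numbers mark replicates and lines the mean of 3 arrays. Ccnd2 is the probe set whose high arrays all lie below its low arrays, while 3 of the 4 tested Ccnd1 probe sets, 1 of Ccnd3 and that of Cdk4 lie wholly above.

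Ccnd1, the gene of cyclin D1, had the most probe sets, 5 in all, and each had a higher mean under the high diet. The probe set D14014_g_at read 4081.2, 4142.5 and 5165.3 on high corn oil replicates 1, 2 and 3 and 3403.0, 3139.7 and 3413.3 on the low ones. The groups did not overlap, and the difference was 0.40 ± 0.16 (SE), a ratio of 1.32. The probe set rc_AA957218_at read 1362.9, 1546.4 and 1639.3 under the high and 1118.4, 1019.7 and 1125.1 under the low diet, again without overlap. Its difference was 0.42 ± 0.18, and that of X75207_s_at 0.41 ± 0.19.

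On X75207_s_at high corn oil replicate 1 was the highest array, at 2212.5, followed by 1844.2 and 1683.3, against 1458.0, 1501.2 and 1220.0 on the low arrays. On rc_AA957218_at the same array was the lowest of the high ones. These 3 probe sets gave nearly the same difference, 0.40 to 0.42. The dim probe set rc_AI231257_at, which was not tested, read 323.8, 477.4 and 275.3 against 186.0, 103.5 and 172.6, also without overlap.

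The brightest Ccnd1 probe set, D14014_at, did not separate the diets. It read 2943.9, 5815.7 and 6449.9 on the high and 3296.0, 2685.5 and 3443.7 on the low arrays. High corn oil replicate 1 lay among the low arrays, while the other high arrays were far above them. Its difference was 0.60 ± 0.30, and 0.94 ± 0.17 without high corn oil replicate 1. D14014_at and D14014_g_at bear the name of the same sequence record, so they are no independent readings. On D14014_g_at the same array was the lowest of the high ones too, but above all low arrays.

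Ccnd2, the gene of cyclin D2, went the other way on the probe set that could be measured. On rc_AA899106_at the high arrays read 889.6, 850.6 and 621.8 and the low arrays 1775.1, 1852.7 and 1616.5. Every high array was below every low one, with means of 787.3 ± 144.7 (SD) and 1748.1 ± 120.4. The difference was -1.02 ± 0.21 (SE), so the low arrays were 2.03 times as high on the fitted scale.

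The second Ccnd2 probe set gives no level. D16308_at was at or below 0 on 5 of 6 arrays: -1143.5, -1615.0 and -1842.2 under the high diet, and -301.1, -1354.0 and, alone above 0, 319.1 under the low. The opposite course of the D cyclins therefore rests on 1 of the 2 Ccnd2 probe sets.

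The distance between Ccnd1 and Ccnd2 restates the contrast on which the set was selected, and the Ccnd2 term is shared by all its values. Relative to the low corn oil mean of each, Ccnd1 on D14014_g_at minus Ccnd2 was 1.15, 1.23 and 1.91 in log2 on high corn oil replicates 1, 2 and 3. On the low arrays it was 0.01, -0.15 and 0.14. With the other tested Ccnd1 probe sets the mean distance under the high diet was 1.62 ± 0.77 (SD) for D14014_at, 1.44 ± 0.13 for X75207_s_at and 1.45 ± 0.34 for rc_AA957218_at. The lowest of these high values was 0.78 on D14014_at, and the highest low value of that probe set was 0.24. That separation comes from the Ccnd2 term, -0.86 on high corn oil replicate 1. Ccnd1 on D14014_at was itself at -0.08 on that array, among the low arrays. With Ccnd3 in place of Ccnd1 the mean distance was 1.47 ± 0.36 on D16309_g_at, 1.28 ± 0.52 on D16309_at, 1.06 ± 0.40 on U49935mRNA_r_at and 0.63 ± 0.61 on U49935mRNA_s_at. On the last, whose own mean was lower under the high diet, high corn oil replicate 2 was at -0.06, below the highest low array at 0.03.

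**Figure D2:**
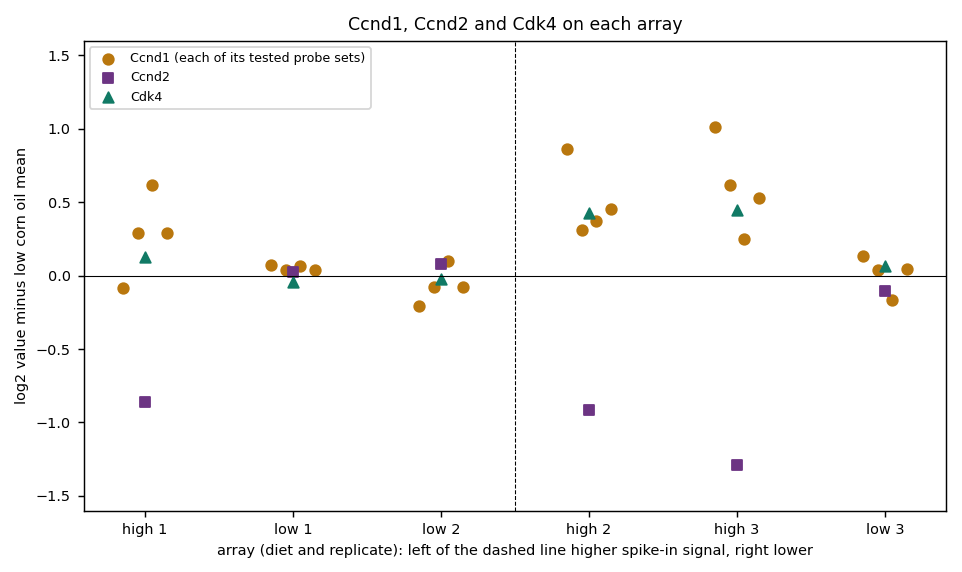
Log2 value minus the low corn oil mean (vertical axis) for the tested probe sets of Ccnd1, Ccnd2 and Cdk4 on each array, with the arrays of higher spike-in signal left of the dashed line. Ccnd2 lies from -1.29 to -0.86 on the 3 high corn oil arrays, and one Ccnd1 probe set, D14014_at, is at -0.08 on high corn oil replicate 1.

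Within the arrays of higher spike-in signal (1 high and 2 low corn oil arrays) the Ccnd2 difference was -0.91, and within those of lower signal (2 high and 1 low) it was -1.002. For Ccnd1 the corresponding values were 0.31 and 0.42 on D14014_g_at, 0.53 and 0.48 on X75207_s_at and 0.31 and 0.45 on rc_AA957218_at. D14014_at gave -0.01 and 0.80, so its difference lay in the arrays of lower signal. Without high corn oil replicate 1, Ccnd2 was at -1.10 ± 0.20. In that setting both remaining high arrays had lower spike-in signal, as had 1 of the 3 low arrays. If high corn oil replicate 3 was moved to the low group, Ccnd2 was at -0.57 ± 0.42, and Ccnd1 at 0.14 ± 0.40 on D14014_at, 0.14 ± 0.23 on D14014_g_at, 0.24 ± 0.25 on rc_AA957218_at and 0.43 on X75207_s_at.

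The summed intensities of fibroblast and of mast cell markers were also lower on the arrays where Ccnd2 was low, though not every mast cell marker was. All 8 measured fibroblast markers had a lower mean under the high diet, and their summed intensity was 65528 to 90125 on the high and 100663 to 140759 on the low arrays, without overlap. Of 9 smooth muscle markers 8 were lower, with sums of 145080 to 189015 and 176296 to 220774. All 7 macrophage and myeloid markers were lower on the log2 scale, with sums of 37524 to 60482 and 56606 to 62400. The 6 mast cell markers, 4 of them lower, summed to 4636 to 7324 and 9167 to 11980. Of 7 skeletal muscle markers 6 were lower, with sums of 17490 to 34599 and 25914 to 31506. No marker of these 5 lists was at or below 0 on all arrays. Their part in the Ccnd2 difference was not tested.

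Markers of epithelium, endothelium and lymphocytes are set beside Ccnd1. The 6 measured luminal markers summed to 106026 to 124506 under the high and 109428 to 114824 under the low diet, overlapping, with 4 higher. The 3 basal markers, of which Tp63 was at or below 0 on all arrays, summed to 12862 to 14104 and 11031 to 11927, without overlap. The 4 endothelial markers, 3 of them higher, summed to 1919 to 3839 and 1778 to 2780, and the 9 lymphocyte markers, 5 of them lower, to 4080 to 6472 and 4476 to 6420. Their part in the Ccnd1 difference was not tested.

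Ccnd3, the gene of cyclin D3, was measured by 4 probe sets that did not go one way. D16309_g_at read 7302.6, 8255.4 and 8883.6 under the high and 5045.8, 5873.6 and 6935.1 under the low diet. The groups did not overlap and the difference was 0.45 ± 0.17, but 0.24 ± 0.24 with high corn oil replicate 3 taken as low. On D16309_at, named for the same record, the difference was 0.26 ± 0.20 and the groups overlapped; with that change of group it was -0.022. U49935mRNA_r_at was at 0.04 ± 0.21. U49935mRNA_s_at was at -0.39 ± 0.31, with 351.9 on high corn oil replicate 2 and 719.5 to 875.1 on the other arrays, so that 1 array set much of its difference: without it the value was -0.10.

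Cdk4, the kinase partner of the D cyclins, had 1 probe set. It read 5847.8, 7213.3 and 7327.3 on the high corn oil arrays, against 5164.3, 5260.7 and 5588.9. All high arrays lay above all low ones, high corn oil replicate 1 being the nearest to them, and the difference was 0.33 ± 0.15, a ratio of 1.26. Leaving out each array in turn gave 0.28 to 0.44, and counting high corn oil replicate 3 among the low arrays gave 0.17 ± 0.20. Within the arrays of higher and lower spike-in signal it was 0.16 and 0.37.

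The promoters of Ccnd3 and Cdk4 are shown because, after Ccnd1, these were the members with a probe set wholly higher under the high diet. They are RefSeq sequences on build GRCr8, 250 bases before to 50 after the start, read 5′ to 3′ along the gene's strand. Of the 10 members, 8 had an entry in the promoter table. The Ccnd3 window is chr9:20897826-20898125 (minus strand) and the Cdk4 window chr7:64771203-64771502 (plus strand). Capitals mark matches, on either strand, to the GC box GGGCGG, the cyclic AMP response element core ACGTCA and the E-box CACGTG, the site bound by Myc and related factors.
Ccnd3: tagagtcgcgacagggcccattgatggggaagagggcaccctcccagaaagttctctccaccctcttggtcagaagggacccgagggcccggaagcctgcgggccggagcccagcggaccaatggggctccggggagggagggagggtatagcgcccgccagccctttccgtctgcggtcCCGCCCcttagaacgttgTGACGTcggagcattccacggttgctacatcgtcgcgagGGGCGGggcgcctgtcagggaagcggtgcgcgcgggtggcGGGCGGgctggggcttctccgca
Cdk4: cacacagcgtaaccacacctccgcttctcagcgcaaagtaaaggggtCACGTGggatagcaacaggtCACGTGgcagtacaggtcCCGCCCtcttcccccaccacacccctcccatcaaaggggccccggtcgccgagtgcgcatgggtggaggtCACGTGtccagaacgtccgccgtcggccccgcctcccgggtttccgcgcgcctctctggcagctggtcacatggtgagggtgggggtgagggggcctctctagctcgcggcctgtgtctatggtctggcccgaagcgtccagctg

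Ccnd3 held 3 GC boxes and 1 response element core, and Cdk4 held 3 E-boxes and 1 GC box. Among 33469 promoters of the same length, 33.1% held a GC box, 7.94% the response element core and 6.42% an E-box. The E2F motif TTTNGCGC, sought on both strands, was in 1.28% of all promoters and in none of the 8 member windows. Only this 1 pattern was sought, and only within these windows, so the search does not show that E2F sites are absent. No 2 of these motifs overlapped in the windows shown. The matches are a description of the letters, and the arrays measured no binding. The E-box was added to the search after the Cdk4 sequence had been read.

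**Figure D3:**
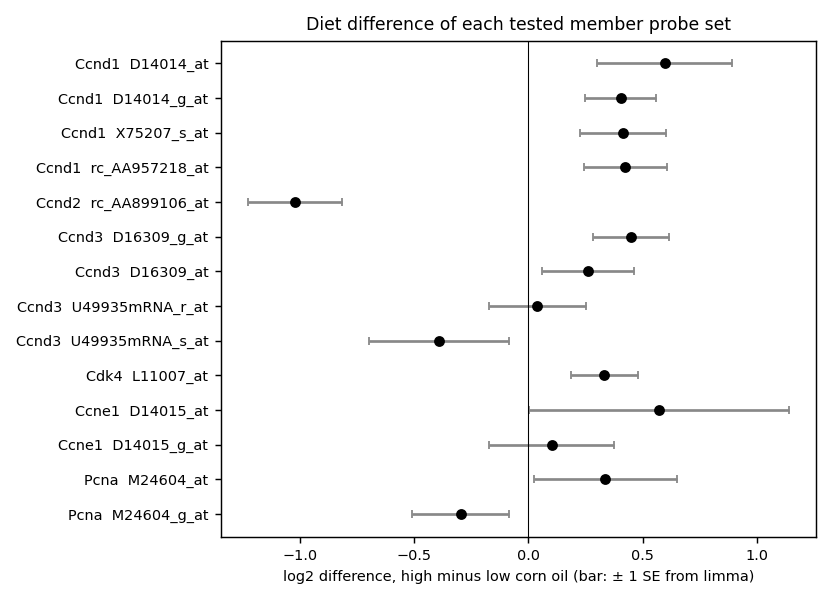
Log2 difference, high minus low corn oil (horizontal axis), of each of the 14 tested member probe sets, with bars of 1 SE from limma. Ccnd2 is at -1.02, the 4 Ccnd1 probe sets are at 0.40 to 0.60, and the longest bar, an SE of 0.57, is that of Ccne1 on D14015_at.

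Ccne1, the gene of cyclin E1 and an E2F target, split the high arrays. D14015_at read 479.4 on high corn oil replicate 1 but 2798.0 and 2657.8 on the others, against 1175.0, 1000.2 and 885.9 under the low diet. The first was the lowest of all arrays and the others were the highest, so the difference was 0.57 ± 0.57. Without high corn oil replicate 1 it was 1.30 ± 0.19. Without replicate 2 it was 0.19 ± 0.60, and without replicate 3 it was 0.23 ± 0.62.

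The second Ccne1 probe set, D14015_g_at, did not show that split. It read 695.7, 659.4 and 854.9 under the high and 578.3, 545.4 and 946.7 under the low diet, with a difference of 0.10 ± 0.27. Within the arrays of higher and lower spike-in signal D14015_at was at -0.97 and 1.47, opposite in sign. D14015_g_at was at 0.25 and -0.28 there, also opposite in sign but the other way round.

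Pcna, the sliding clamp of DNA polymerase and a common marker of replicating cells, had a pair of probe sets of opposite sign. M24604_at read 3556.6, 3779.7 and 4693.3 under the high and 1839.7, 3668.6 and 4445.0 under the low diet. Only low corn oil replicate 1 lay clearly apart; the difference was 0.34 ± 0.31, and -0.02 ± 0.20 without that array. M24604_g_at read 1527.6, 1261.3 and 1242.1 against 1462.4, 2141.3 and 1510.8, a difference of -0.30 ± 0.21. Neither probe set separated the diets.

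The inhibitors and Cdk2 gave no usable level. The only Cdkn1b probe set, for p27, was at or below 0 on 4 of 6 arrays and nowhere above 48.7. Of the Cdkn1a probe sets, for p21, L41275cds_s_at lay between -496.5 and 198.7. U24174_at was below 0 on all arrays, at -787.1, -1623.8 and -1818.4 under the high and -173.7, -501.5 and -233.2 under the low diet. Those groups do not overlap, but values below 0 have no fold and were set to 0 before the fit. The Cdk2 probe sets ranged from 47.8 to 538.0 and from -515.8 to 106.8.

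Rb1, whose protein is the substrate of the cyclin D kinases, was dim on both probe sets. D25233cds_at read 160.4, 209.5 and 96.3 under the high and 302.5, 209.3 and 240.5 under the low diet. The groups overlapped only in the values 209.5 and 209.3. On rc_AI178012_at the high arrays read 97.4, 375.9 and 345.5 and the low ones 188.9, 123.1 and 116.9, with high corn oil replicate 1 again apart from the other high arrays. The means thus went opposite ways on the 2 probe sets, and neither was tested.

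Other genes of the pathway were taken from 8 lists by role. Of 157 listed genes 78 had a probe set, 59 were tested, 28 had a higher and 31 a lower mean under the high diet, and 0 passed limma's adjusted threshold in either direction, with 6 at an unadjusted p under 0.05, where 9.95% of the whole table had one. The median difference was -0.01, against 0.03 over all tested probe sets. The diets did not overlap for 5 genes (8.47%), 3 higher and 2 lower, against 15.5% of the whole table. With high corn oil replicate 1 left out, 2 of these 59 genes, Junb and Igf1r, passed in limma, as did 214 of the 5244 probe sets (4.08%), so the list stood near the background.

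Among the 12 tested genes of S phase and DNA replication, 6 were higher and 6 lower. Mcm7, a subunit of the replicative helicase, read 3006.0, 3669.8 and 3563.3 under the high and 2765.4, 2163.9 and 2589.3 under the low diet, without overlap (0.42 ± 0.17, limma adjusted p = 0.492). Prim2, of the DNA primase, was at 0.58 ± 0.30 (limma adjusted p = 0.516), also without overlap. Pold1, the catalytic subunit of DNA polymerase delta, was at -1.36 ± 0.52 (limma adjusted p = 0.480), but it was dim and at -185.2 on high corn oil replicate 3, so its value depends on the floor at 0.

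Among the 7 tested genes of the pocket protein and E2F list 3 were higher and 4 lower. Rbl2 was its only tested pocket protein gene and E2f5 (0.28 ± 0.33) its only tested E2F gene. The others were Id genes, Hdac2 and Rbbp7. Rbl2, the p130 relative of Rb1, read 2553.8, 2006.3 and 1290.0 under the high and 6090.7, 4084.0 and 2497.1 under the low diet. The lowest low array was just under the highest high one, and the difference was -1.02 ± 0.36 (limma adjusted p = 0.480). The histone deacetylase gene Hdac2 was at 0.38 ± 0.23, and Id2, an inhibitor of differentiation factors, at -0.61 ± 0.43. Id2 was at -0.15 without low corn oil replicate 1.

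Of 5 inhibitor and growth arrest genes 3 were higher and 2 lower. Cdkn1c, the gene of the inhibitor p57, read 553.4, 734.4 and 858.3 against 168.8, 246.7 and 571.5, a difference of 0.92 ± 0.38 (limma adjusted p = 0.494). One low array, replicate 3, overlapped the lowest high array. The mean of Cdkn1c under the low diet was 329.0, below the filter level of 342.9, so it was tested only through the high arrays. The size of its difference depended on the pseudocount. It was 0.51 ± 0.20 with the median itself and 1.17 ± 0.50 with the median divided by 16. Gadd45a, a growth arrest gene induced by DNA damage, was at 0.53 ± 0.35, and 0.91 without high corn oil replicate 1. Btg1, an antiproliferative gene, was at -0.23 ± 0.23, and -0.43 without that array.

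Among 24 tested genes of upstream signals 13 were higher and 11 lower. Rps6kb1, the S6 kinase gene of the growth factor pathway, read 1474.0, 1965.2 and 2386.8 against 1091.9, 1113.5 and 1404.7, without overlap (0.61 ± 0.23, limma adjusted p = 0.480). Nfkb1, an NF-kB subunit gene, read 2539.6, 2476.4 and 3012.1 against 3473.5, 3792.8 and 3536.7, lower without overlap (-0.41 ± 0.15, limma adjusted p = 0.480). Neither passed.

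Junb, an AP-1 gene, read 4795.7, 1319.5 and 1414.2 on the high and 5225.5, 4661.3 and 3847.4 on the low arrays. High corn oil replicate 1 was with the low arrays, and the difference was -1.06 ± 0.45 (limma adjusted p = 0.500). Without it the value was -1.63 ± 0.18 (limma adjusted p = 0.0208). Igf1r, the receptor gene for insulin-like growth factors, was named only after its values were seen. It read 2050.3, 6371.5 and 6084.5 against 1803.5, 2262.5 and 2459.7, at 0.95 with all arrays and 1.46 ± 0.18 without high corn oil replicate 1 (limma adjusted p = 0.0208). For both genes limma's adjusted p was 0.405 to 0.998 in all other settings. Without high corn oil replicate 1, both remaining high arrays had lower spike-in signal, as had only replicate 3 of the low arrays. Diet and spike-in level are then largely mixed, so the p-values of that setting are not read as a test of diet. On Igf1r, Junb, Ccne1 (D14015_at) and Ccnd1 (D14014_at), high corn oil replicate 1 lay with or beyond the low arrays. On Ccnd2 it lay with the other high arrays. It was likewise beyond all low arrays, on the side of the other high ones, on further probe sets. Among these were the other Ccnd1 probe sets, Ccnd3 (D16309_g_at), Cdk4, Mcm7, Prim2, Rps6kb1 and Nfkb1.

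The remaining 4 lists held few tested genes. Of 4 genes of G2 and mitosis, 1 was higher and 3 lower: the topoisomerase gene Top2a was at 0.56 ± 0.46 (1.08 without high corn oil replicate 1), the mitotic kinase gene Plk1 at -0.44 ± 0.44 (0.010 without high corn oil replicate 3) and the microtubule regulator gene Stmn1 at -0.33 ± 0.44 (0.034 with spike-in level as a block). Of 5 further kinase genes and activators 4 were lower, among them the phosphatase gene Cdc25b at -0.24 ± 0.22, the kinase gene Cdk7 at -0.14 ± 0.21 and Wee1, which restrains entry into mitosis, at -0.09 ± 0.27 (0.088 without high corn oil replicate 1). The cyclin G1 gene Ccng1 (-0.13 ± 0.18) and Nedd8 (0.11 ± 0.15), the modifier of cullin ligases, were the only tested genes of their lists. None of these passed limma's threshold with all arrays.

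**Figure D4:**
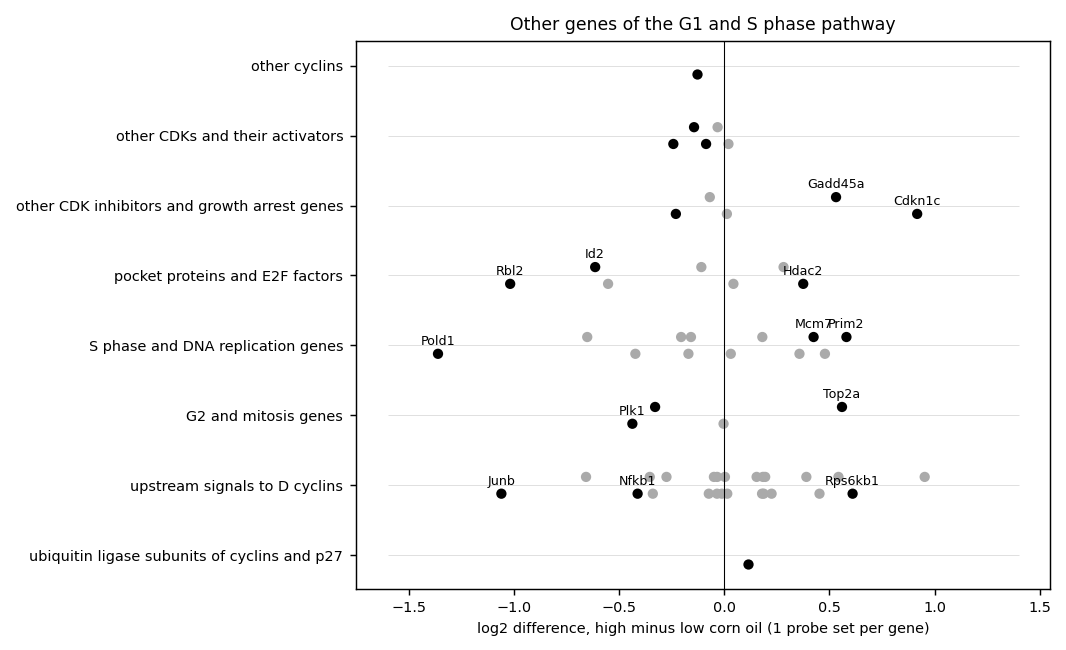
Log2 difference, high minus low corn oil (horizontal axis), of the 59 tested other genes of the pathway by list, 1 probe set per gene; black points are the 3 genes of each list with the smallest p. The lists lie on both sides of 0, from Pold1 at -1.36 to Igf1r at 0.95.

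The genes whose log2 values followed each cyclin most closely over the 6 arrays were sought among 3156 other tested genes. For Ccnd1 on D14014_at they were the matrix glycoprotein gene Tnc (Pearson r = 0.992), the deubiquitinase gene Usp19 (0.990) and the complement gene C9 (0.990), and 77 genes had an r over 0.95. Of the Ccnd1 probe sets, only D14014_at had high corn oil replicate 1 among the low arrays. These genes follow its split of the high arrays and need not follow the other Ccnd1 probe sets. For Ccnd2 they were the small GTPase gene Rhoc (0.998), the lymphatic growth factor gene Vegfd (0.986) and the sodium pump subunit gene Atp1b1 (0.982), and 13 genes had an r over 0.95. The values share their arrays and the diet split, so these are descriptions of likeness over few arrays and no p is given.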

How the data were processed

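The deposited intensity values, linear and 1 per probe set and array, were scaled by the authors: with the top and bottom 2% removed, every array had a mean of 2503 or 2504. MAS5 is the tool in the submitters' processing notes; its version is not given in the sources used here. From 18.6% to 23.1% of an array's values were at or below 0. MAS5 signals are normally above 0, so whether that tool made these values is in doubt, and the algorithm is unknown. Precision is limited by having 3 arrays per diet.

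Probe sets were named by the platform annotation, updated through gene identifiers to GRCr8 symbols: 6985 by identifier, 21 by platform symbol, while 308 with several genes and 1426 with none stayed unnamed, and 59 controls were left out of the fit.

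Values below 0 were set to 0, then log2(value + 156.14) was taken, the pseudocount being the median divided by 4. Dim genes change less on this scale than in intensity. Probe sets at or above the 40th percentile of mean value (5244, for 3162 genes) were fitted with limma 3.58.1 in R 4.3.3 (intensity trend, both directions, Benjamini-Hochberg over all tested probe sets, threshold 0.05). The fit was checked on simulated data, with changes larger than the member differences placed in probe sets of low spread. That check does not show what the fit can find at the differences given here. Named pathway genes were the 3 smallest p of each list. Of several probe sets the one with the highest mean stood for a gene. The members and lists were chosen with earlier results of these data known. Alternatives changed the pseudocount, the floor at 0 (an asinh transformation), the filter, the intensity trend, quantile normalization, a gene's probe set summary, blocks on replicate number and on spike-in level, and the diet of high corn oil replicate 3, and left out each array.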

Additional observations from a re-analysis of the deposited data

How the results depend on the processing

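The count of called probe sets was 0 with all arrays and the filter, 9 with no filter, and from 0 to 214 when each array was left out, the 214 coming without high corn oil replicate 1. For the other pathway genes it was 0, and from 0 to 2 when arrays were left out. Counting high corn oil replicate 3 as low left 7 of 14 member probe sets higher instead of 11, and put Ccnd1 (D14014_at) at 0.14 and Ccnd2 at -0.57. With the median itself as pseudocount Ccnd2 was at -0.75. Leaving out each array gave 0.39 to 0.94 for Ccnd1 on D14014_at, -1.10 to -0.89 for Ccnd2 and 9 to 11 member probe sets higher. The other tested Ccnd1 probe sets ranged less: 0.30 to 0.46 (D14014_g_at), 0.37 to 0.49 (rc_AA957218_at) and 0.31 to 0.50 (X75207_s_at). Apart from the change of group and of pseudocount given above, D14014_at and Ccnd2 moved by less than the spread between replicates. Other members moved by more when high corn oil replicate 3 was taken as low: Ccnd1 to 0.14 (D14014_g_at) and 0.24 (rc_AA957218_at), Ccnd3 to 0.24 (D16309_g_at) and -0.022 (D16309_at), and Cdk4 to 0.17. With the median as pseudocount rc_AA957218_at was at 0.32. In the same change of group the sign also turned for Ccne1 (-0.089 on D14015_at, -0.063 on D14015_g_at) and for Ccnd3 on U49935mRNA_r_at (-0.047). It turned for D14015_g_at with spike-in level as a block (-0.017) and without low corn oil replicate 2 (-0.018), and for Pcna on M24604_at without low corn oil replicate 1 (-0.020). For U49935mRNA_r_at it turned with quantile normalization (-0.0015), with the spike-in block (-0.042) and in 3 of the settings that left out an array (lowest -0.042). Among other pathway genes signs turned for Gadd45a (-0.038), Nedd8 (-0.082) and Plk1 (0.34) where high corn oil replicate 3 was taken as low, for Plk1 without high corn oil replicate 3 (0.010; leaving out arrays gave -0.74 to 0.010), for Stmn1 with spike-in level as a block (0.034), for Wee1 without high corn oil replicate 1 (0.088) or low corn oil replicate 3 (0.085; -0.19 to 0.088), and for Ccng1 without low corn oil replicate 3 (0.0093; -0.22 to 0.0093). The cause was not tested. Same-numbered arrays of the diets deviated with correlations of -0.05, -0.20 and 0.18, and 2 of 6 arrays correlated best with their own number, so the numbers were not taken as pairs; with a replicate block limma called 0 probe sets and Ccnd2 was at -1.02 ± 0.24. Dim probe sets near or below 0 limit what can be said of Cdkn1a, Cdkn1b, Cdk2 and Rb1.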
